A study of Mus musculus with 8 samples.

Results

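The genes examined were 9 members of the YAP and TEAD pathway: the target genes Ccn2, Ccn1, Thbs1, Ankrd1, Amotl2 and Lats2, the DNA-binding factor Tead1, and the coactivators Yap1 and Wwtr1 (TAZ). Every probe set whose only gene symbol in the platform annotation was one of these was kept, which gave 23 probe sets of the 45101 on the array and 9 of 18193 genes. Another 2 probe sets that name Lats2 or Thbs1 together with a second gene were left out. RNA came from 7438 cells, a mouse mammary line that carries a GFP-tagged glucocorticoid receptor and a Cherry-tagged estrogen receptor under tetracycline-regulated promoters. All groups, the untreated one included, were kept in charcoal-dextran-treated serum for 48 hours and had tetracycline withdrawn for 24 hours. Tetracycline withdrawal was thus shared by all groups, and induction of the tagged receptors was not checked here. The groups were 100 nM of the synthetic glucocorticoid dexamethasone (Dex), 100 nM estradiol (E2), both hormones at those doses (Dex+E2), each for 2 hours, and untreated cells. Each of the 4 groups had 2 arrays. The labels do not state separate cultures for replicates 1 and 2, and the p-values therefore cover no more than how far these samples differ, possibly for technical reasons alone. Only this line was profiled, and a fall in a pooled RNA cannot tell fewer expressing cells from less RNA in each cell.

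YAP and TAZ are coactivators without a DNA-binding domain of their own. They enter the nucleus and bind TEAD factors on promoters and enhancers when the Hippo kinases MST and LATS are inactive, and LATS kinases phosphorylate them and hold them in the cytoplasm when the pathway is on. Cell density, spreading and actin tension set this balance, and in mammary epithelium the pathway is known for its part in growth and in the response to matrix stiffness. Several targets, among them Amotl2 and Lats2, encode inhibitors of YAP and so form a negative feedback loop.

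The array medians lay between 5.58 and 5.66 on the log2 scale of robust multi-array averaging (RMA), and replicate arrays correlated at 0.9961 (Dex+E2), the lowest of the groups, to 0.9983 (Dex) across probe sets. The Dex+E2 arrays had 1249 probe sets more than 0.5 log2 units apart, against 92 to 305 in the other groups. The free-text descriptions of 2 arrays, E2 replicate 2 and Dex+E2 replicate 1, name a chromatin immunoprecipitation experiment, although by title and treatment they belong to the expression groups. They were kept. Where leaving both out changed a call, the value without them is given beside it. Some values that moved without a change of call are given as well. Of the epithelial markers 4 of 10 averaged above the median probe set over all 8 arrays (untreated range 3.24 to 8.19). These were Krt14 (untreated 8.19), Epcam (6.88), Krt5 (6.58) and Krt8 (5.88). The others, among them Cdh1 (untreated 3.24) and Krt18 (untreated 4.45), lay below it. Of the mesenchymal markers 8 of 8 lay above it (untreated range 5.65 to 13.97). Since levels of different probe sets are not on a common scale, these readings leave the epithelial identity of the line unsettled. Markers of immune (2 of 6 above the median), endothelial (1 of 5) and adipose (0 of 3) cells were mostly low. Of the milk protein genes 2 of 4 lay above the median. None of the genes in the epithelial, immune, endothelial, adipose and milk protein lists passed the test against untreated cells. Among the mesenchymal markers 1 did, Snai2 (Slug), which averaged 8.75 with Dex, 9.63 with E2, 8.77 with Dex+E2 and 9.85 in untreated cells and fell with Dex and with Dex+E2; its part in the members' results was not tested.

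The members ranged widely in their response to Dex. With Dex alone, Ccn2 rose and Thbs1 and Ankrd1 fell, by 2.85-fold or more in each case, Amotl2 and 1 probe set of Lats2 had smaller falls that passed only in the Dex effect averaged over both backgrounds, and the coactivators Yap1 and Wwtr1 stayed within narrow intervals around no difference. In all, 5 of 23 member probe sets, from 3 genes, passed an adjusted p of 0.05 in Dex against untreated cells (limma fitted to 45037 probe sets, Benjamini-Hochberg adjustment), of which 1 was higher and 4 were lower. Across all probe sets tested in that comparison, 0.924% passed, 0.575% as higher and 0.349% as lower. The members and lists were chosen with earlier results of these data known. Their shares, here and below, are therefore descriptions and no test of the pathway against the background. The median difference of the 23 was -0.04 on the log2 scale, against 0.0014 for all probe sets. With Dex+E2 against untreated cells, 5 of 23 again passed, 1 higher and 4 lower, against a background of 0.844% (0.471% higher, 0.373% lower), with a member median of -0.17 and an overall one of 0.0035. With E2 alone 0 of 23 passed by limma, and the background was 0.0355%. An unadjusted p under 0.05 was seen for 6 of 23, against 5.42% of all probe sets. These 6 were all lower and came from Ccn1, Thbs1 and Ankrd1 only, and probe sets of the same gene are not separate observations. The member median was -0.06, against -0.01 overall. These 3 comparisons use the same untreated arrays.

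**Figure D1:**
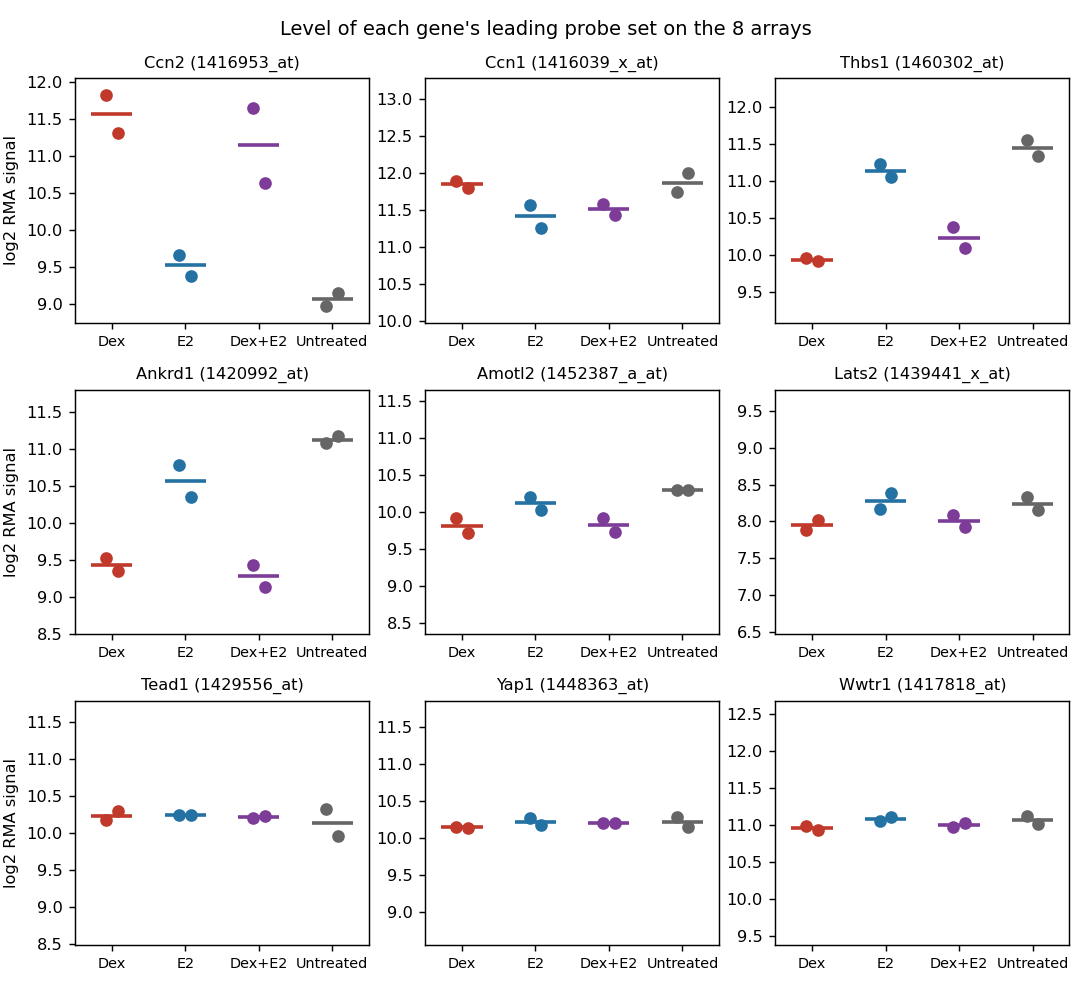
Log2 RMA signal (vertical axis) of the leading probe set of each of the 9 genes on each of the 8 arrays, grouped as Dex, E2, Dex+E2 and untreated; each point is an array and each bar the mean of 2 arrays. Every panel spans the same number of log2 units, so the rise of Ccn2 and the fall of Thbs1 and Ankrd1 in the groups with Dex can be set against the level lines of Yap1 and Wwtr1.

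Ccn2 encodes connective tissue growth factor, a secreted matricellular protein and one of the most used readouts of YAP activity. Its single probe set read 11.83 and 11.31 on the Dex arrays, 9.66 and 9.38 on the E2 arrays, 11.66 and 10.64 on the Dex+E2 arrays, and 8.97 and 9.15 on the untreated arrays (log2 level). All 4 arrays with Dex lay above all 4 without it. Ccn2 was 2.51 ± 0.274 log2 units higher with Dex than in untreated cells (difference ± SE, n = 2 arrays each, 5.68-fold, 95% interval 1.90 to 3.11, limma adjusted p = 0.00107). In Dex+E2 against untreated cells it was 2.09 ± 0.274 units higher (4.24-fold, limma adjusted p = 0.00425), and this call was lost when either untreated replicate 1 (adjusted p = 0.0850) or untreated replicate 2 (0.0562) was left out. E2 alone gave 0.46 ± 0.274 units with an interval of -0.15 to 1.07 (limma adjusted p = 0.942). Ranked by mean level the order was Dex (11.57 ± 0.364, SD), Dex+E2 (11.15 ± 0.719), E2 (9.52 ± 0.196) and untreated (9.06 ± 0.126). The neighbours Dex+E2 and Dex did not differ past the threshold (-0.42, interval -1.03 to 0.19), nor did E2 and untreated. The first of these turned on single arrays: it was -0.93 without Dex+E2 replicate 1 (limma adjusted p = 0.0764), -0.93 without both arrays with deviating descriptions (0.0648), -0.68 without Dex replicate 2, -0.16 without Dex replicate 1 and 0.09 without Dex+E2 replicate 2. The Dex+E2 arrays stood 1.02 units apart, the widest replicate gap among the leading probe sets of the members.

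Ccn1, also known as Cyr61, is a relative of Ccn2 and likewise a secreted matricellular target of YAP and TEAD. It behaved differently. Its leading probe set (1416039_x_at) read 11.89 and 11.80 with Dex, 11.56 and 11.26 with E2, 11.58 and 11.44 with Dex+E2, and 11.74 and 11.99 in untreated cells. The Dex and untreated arrays interleaved, and the difference was -0.02 with an interval of -0.30 to 0.25. The second probe set (1438133_a_at) gave -0.08. The remaining pair, 1442340_x_at and 1457823_at, which the annotation draws from a single source sequence, gave 0.28 and 0.40 (unadjusted p = 0.0879 and 0.0184 by limma), and neither passed after adjustment (0.40 had an adjusted p of 0.595). In Dex+E2 against Dex all 4 Ccn1 probe sets were lower, by -0.34 to -0.46. These probe sets read the same gene on the same arrays and are not separate observations. Their unadjusted p lay between 0.00884 and 0.0245 and their limma adjusted p was 0.996. Without the arrays with deviating descriptions these differences were -0.41 to -0.66 (adjusted p = 0.0635 to 0.158), and 1438133_a_at fell by 0.58 in Dex+E2 against untreated cells (0.0467). With E2 against untreated cells 1416039_x_at gave -0.46 ± 0.123 and 1438133_a_at -0.50 ± 0.135 (limma adjusted p = 0.587 and 0.584), and -0.31 and -0.38 without E2 replicate 2.

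**Figure D2:**
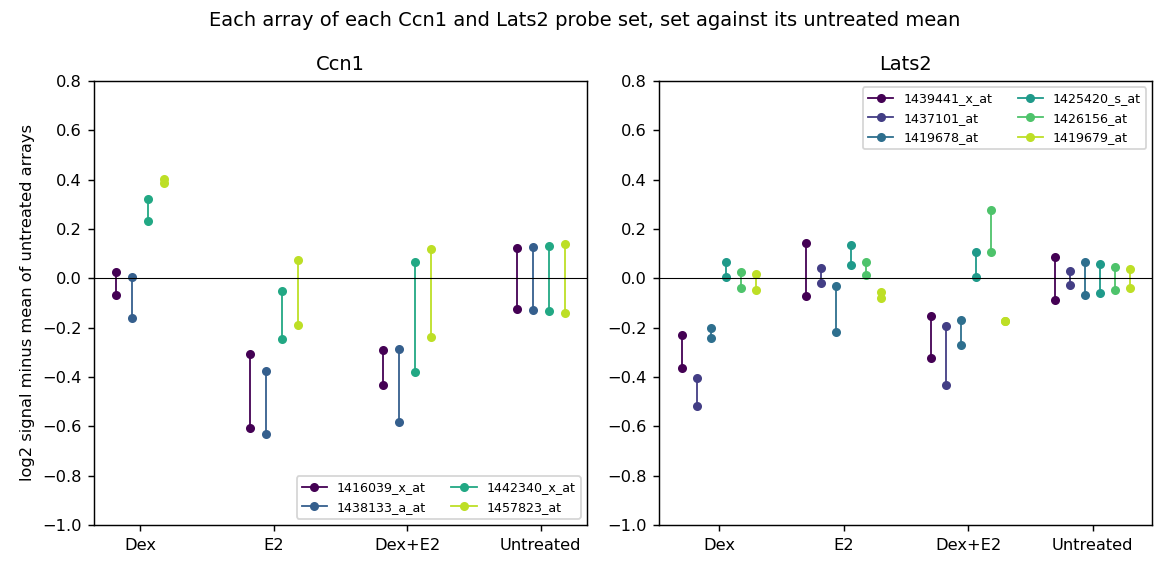
Log2 signal minus the mean of the untreated arrays (vertical axis) for each probe set of Ccn1 (left panel, 4 probe sets) and Lats2 (right panel, 6 probe sets), with the 2 arrays of each group joined by a line. The Ccn1 probe sets sit lower with E2 and with Dex+E2 than with Dex. The Lats2 probe sets 1439441_x_at, 1437101_at and 1419678_at sit below their untreated means with Dex and with Dex+E2. The other Lats2 probe sets lie near 0 with Dex.

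Thbs1 encodes thrombospondin-1, a large matricellular glycoprotein that inhibits angiogenesis and activates latent TGF-beta. The leading probe set (1460302_at) read 9.96 and 9.91 with Dex, 11.23 and 11.05 with E2, 10.38 and 10.09 with Dex+E2, and 11.56 and 11.33 in untreated cells. The 4 arrays with Dex lay below the 4 without it, with no overlap. The level fell by 1.51 ± 0.121 log2 units with Dex relative to untreated cells (2.85-fold lower, limma adjusted p = 0.000175), and the second probe set (1450377_at) fell by 1.68 ± 0.138 (3.20-fold lower, limma adjusted p = 0.000204). With Dex+E2 the 2 probe sets fell by 1.21 ± 0.121 and 1.45 ± 0.138 relative to untreated cells (limma adjusted p = 0.000748 and 0.000613). E2 alone gave -0.31 and -0.42 (limma adjusted p = 0.886 and 0.795). Without both arrays with deviating descriptions these were -0.22 and -0.27. By mean level the groups ranked untreated, E2, Dex+E2, Dex, and neither E2 and untreated nor Dex and Dex+E2 differed past the threshold. The probe set shared between Pald1 and Thbs1, left out of the counts, gave -0.84 with Dex, -0.15 with E2 and -0.76 with Dex+E2.

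Ankrd1 encodes a cardiac ankyrin repeat protein that shuttles between the sarcomere and the nucleus in muscle and acts as a transcriptional cofactor. Its leading probe set (1420992_at) read 9.52 and 9.34 with Dex, 10.78 and 10.34 with E2, 9.43 and 9.13 with Dex+E2, and 11.07 and 11.17 in untreated cells. The E2 arrays lay below both untreated arrays, as on the leading probe sets of Thbs1, Amotl2 and Ccn1. The Ankrd1 arrays with Dex lay lowest. Ankrd1 fell by 1.69 ± 0.148 with Dex (3.22-fold lower, limma adjusted p = 0.000294) and by 1.84 ± 0.148 with Dex+E2 (3.58-fold lower, adjusted p = 0.000218), both relative to untreated cells. The second probe set (1420991_at), drawn from the same source sequence, fell by 1.72 ± 0.136 and 1.87 ± 0.136 (3.28-fold and 3.66-fold lower, limma adjusted p = 0.000161 and 0.00011). E2 alone gave -0.56 ± 0.148 and -0.60 ± 0.136 (unadjusted p = 0.00345 and 0.00119). These did not pass over all probe sets (limma adjusted p = 0.571 and 0.418), and 0.418 was the lowest adjusted p of any member in that comparison. Without E2 replicate 2 they were -0.34 and -0.49. By mean level the groups ranked untreated, E2, Dex, Dex+E2, and the neighbours Dex and Dex+E2, like E2 and untreated, did not differ past the threshold.

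TEAD factors recognise the element GGAATG, read as CATTCC on the other strand. Promoter sequences were at hand for 6 of the 9 genes (RefSeq, GRCm38.p6, 8 start sites). None was at hand for Ccn2, Thbs1 or Tead1, so the counts below do not cover these genes. Sequences are shown for Ankrd1, Ccn1 and Amotl2, 3 targets that hold the element and that ended at different responses to Dex. Each runs 5′ to 3′ on the gene's strand over the 250 bases before the start site, with every match to the element on either strand in capitals. Ankrd1 lies at chr19:36119845-36120094 (minus strand), Ccn1 at chr3:145649986-145650235 (minus strand) and Amotl2 at chr9:102717554-102717803 (plus strand).
Ankrd1: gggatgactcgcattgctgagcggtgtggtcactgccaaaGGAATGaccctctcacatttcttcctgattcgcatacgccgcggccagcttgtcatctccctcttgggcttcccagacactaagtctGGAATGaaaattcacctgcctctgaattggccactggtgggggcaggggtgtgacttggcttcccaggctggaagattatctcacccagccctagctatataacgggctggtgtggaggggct
Ccn1: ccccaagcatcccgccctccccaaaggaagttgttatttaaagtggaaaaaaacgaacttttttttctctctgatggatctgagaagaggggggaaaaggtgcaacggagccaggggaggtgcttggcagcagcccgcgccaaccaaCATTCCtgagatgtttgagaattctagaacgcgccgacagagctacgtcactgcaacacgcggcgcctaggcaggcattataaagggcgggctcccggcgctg
Amotl2: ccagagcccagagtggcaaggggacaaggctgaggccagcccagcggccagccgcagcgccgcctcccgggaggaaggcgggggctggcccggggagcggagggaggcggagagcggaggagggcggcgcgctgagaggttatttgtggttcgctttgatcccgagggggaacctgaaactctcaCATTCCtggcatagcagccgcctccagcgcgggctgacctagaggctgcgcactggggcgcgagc
Ankrd1 had 2 matches, ending 204 and 117 bases before the start, Ccn1 had 1 at 97 bases and Amotl2 had 1 at 59 bases. Yap1 held 1 match, Wwtr1 held the same 1 upstream of each of its 2 annotated starts, and Lats2 held 0 at either start. Of 32851 promoters of this length, 12.6% held at least 1 match and 1.02% held 2 or more. None of the 8 sequences held the glucocorticoid receptor core AGAACA, the AP-1 element TGANTCA or a CArG box, searched on both strands, which 16.1%, 6.75% and 1.47% of all promoters held. A match is a string of letters in this window and no measurement of binding.

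Amotl2, an angiomotin-like scaffold that binds YAP and holds it at junctions and in the cytoplasm, moved less. Its probe set read 9.92 and 9.71 with Dex, 10.21 and 10.02 with E2, 9.93 and 9.73 with Dex+E2, and 10.29 and 10.30 in untreated cells. The arrays with Dex lay below all arrays without it. No single comparison passed with all arrays: the difference was -0.48 ± 0.109 with Dex (unadjusted p = 0.00127, limma adjusted p = 0.104) and -0.47 with Dex+E2 (adjusted p = 0.122), both against untreated cells. The Dex+E2 difference was -0.57 and passed without Dex+E2 replicate 1 (limma adjusted p = 0.0408) and without both arrays with deviating descriptions (0.0334). The mean Dex effect averages Dex against untreated with Dex+E2 against E2 and so rests on all 8 arrays. Without both arrays with deviating descriptions it was -0.48 for Amotl2. With all arrays Amotl2 fell by 0.38 ± 0.0774 (1.31-fold lower, interval -0.56 to -0.21, limma adjusted p = 0.0411). That call was lost without any single array other than Dex+E2 replicate 1, with adjusted p up to 0.203.

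Lats2, a Hippo kinase that phosphorylates YAP and TAZ and is itself a YAP target, had 6 probe sets that did not move alike. Only 1437101_at passed a test. It read 7.45 and 7.56 with Dex, 7.95 and 8.01 with E2, 7.77 and 7.53 with Dex+E2, and 7.99 and 7.94 in untreated cells, so that every array with Dex lay below every array without it. Its mean Dex effect was -0.39 ± 0.0712 (1.31-fold lower, interval -0.55 to -0.23, limma adjusted p = 0.0228), and leaving out any single array other than Dex+E2 replicate 1 lost that call (adjusted p up to 0.154). Against untreated cells Dex alone gave -0.46 ± 0.101 (limma adjusted p = 0.0871). The same difference passed without either Dex+E2 array (0.0332), without both arrays with deviating descriptions (0.0425) and with dim probe sets left out (0.0498). Dex+E2 against E2 gave -0.32 (limma adjusted p = 0.287), and -0.44 without Dex+E2 replicate 1 (0.0459). The leading probe set, 1439441_x_at, gave -0.30 with Dex (unadjusted p = 0.0238, limma adjusted p = 0.667) and a mean Dex effect of -0.28 with an adjusted p of 0.172. Of the other 4, 1419678_at gave -0.22 with Dex (unadjusted p = 0.0446) and the remaining 3 lay near 0. A pair of these, 1426156_at and 1419679_at, had means below the median of all probe sets (5.63), where RMA compresses differences; they were the only such probe sets among the 23.

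The coactivators Yap1 and Wwtr1 showed no detectable difference in RNA level. Yap1 read 10.16 and 10.14 with Dex, 10.27 and 10.17 with E2, 10.20 and 10.20 with Dex+E2, and 10.28 and 10.15 in untreated cells, a range of 0.14 over 8 arrays. Wwtr1 spanned 0.19 units, 10.93 to 11.12. For Yap1 the interval of the difference from untreated cells was -0.26 to 0.13 with Dex, -0.19 to 0.20 with E2 and -0.21 to 0.18 with Dex+E2. For Wwtr1 the intervals were -0.30 to 0.09, -0.18 to 0.20 and -0.26 to 0.13. The second Yap1 probe set gave -0.04 with Dex and the other Wwtr1 probe sets gave -0.02 and -0.04. These are RNA levels, and the location and phosphorylation of the proteins were not measured.

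Tead1, the TEAD family member chosen here, read 10.18 and 10.30 with Dex, 10.25 and 10.25 with E2, 10.21 and 10.24 with Dex+E2, and 10.33 and 9.96 in untreated cells on its leading probe set. The widest gap was between the untreated arrays themselves. The intervals against untreated cells were -0.16 to 0.36 with Dex, -0.15 to 0.37 with E2 and -0.18 to 0.34 with Dex+E2. Its second, dimmer probe set (1423434_at) had 1 array that stood apart, Dex+E2 replicate 2 at 5.60 beside 6.23 on Dex+E2 replicate 1, with the other arrays at 6.12 to 6.49. In Dex+E2 against Dex it gave -0.46 (unadjusted p = 0.0214, limma adjusted p = 0.996), and with Dex+E2 replicate 1 left out it gave -0.78 with an adjusted p of 0.0363. In the same fit Dex+E2 against untreated cells gave -0.56 (0.0354) and Dex+E2 against E2 -0.64 (0.0215), and without both arrays with deviating descriptions the differences from Dex and from untreated cells passed as well (0.0337 and 0.0384). All of these rest on the lone array at 5.60.

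**Figure D3:**
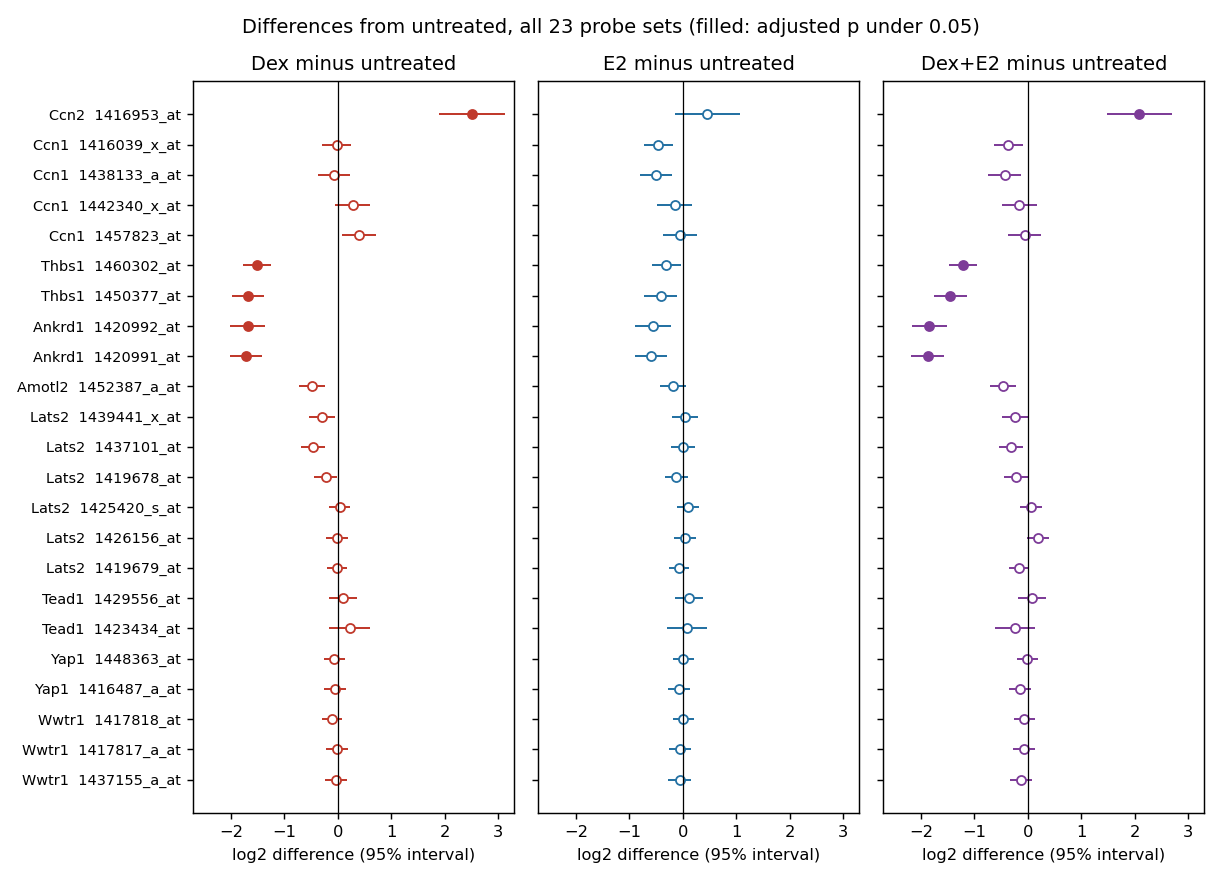
Log2 difference from untreated cells with its 95% interval (horizontal axis) for all 23 probe sets, in panels for Dex, E2 and Dex+E2; filled points have an adjusted p under 0.05. Ccn2 stands to the right and Thbs1 and Ankrd1 to the left in both panels with Dex, and no point is filled in the E2 panel.

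Whether E2 changed the response to Dex was asked by setting Dex+E2 against E2, which shares no array with Dex against untreated. The direction was the same in all 3 responding genes, with smaller sizes. Ccn2 was 1.63 ± 0.274 units higher (3.09-fold, interval 1.02 to 2.23, limma adjusted p = 0.0428). Thbs1 fell by 0.90 ± 0.121 and 1.03 ± 0.138 (limma adjusted p = 0.0140 and 0.0141) and Ankrd1 by 1.28 ± 0.148 and 1.27 ± 0.136 (adjusted p = 0.00607 and 0.00404). Again 5 of 23 passed, 1 higher and 4 lower, against a background of 0.335% (0.204% higher and 0.131% lower). Leaving out E2 replicate 1 lost all 5 calls, with adjusted p of 0.162 for Ccn2, 0.133 for both Thbs1 probe sets and 0.0528 and 0.0563 for Ankrd1. Ccn2 was also lost without E2 replicate 2 (0.308), either Dex array (0.0785) or either untreated array (0.116). Thbs1 was also lost without Dex+E2 replicate 2 (adjusted p = 0.0619 and 0.0755) and, on 1460302_at, without E2 replicate 2 (0.0509). Without both arrays whose descriptions name another experiment, Ccn2 gave 0.98 (limma adjusted p = 0.0703), whereas Thbs1 gave -1.14 and -1.31 (0.0106 and 0.0104) and Ankrd1 gave -1.65 and -1.58 (0.00227 and 0.00256). In Dex+E2 against untreated cells without those arrays Ccn2 gave 1.58 (adjusted p = 0.00266), Thbs1 -1.36 and -1.57, and Ankrd1 -1.99 and -2.07.

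**Figure D4:**
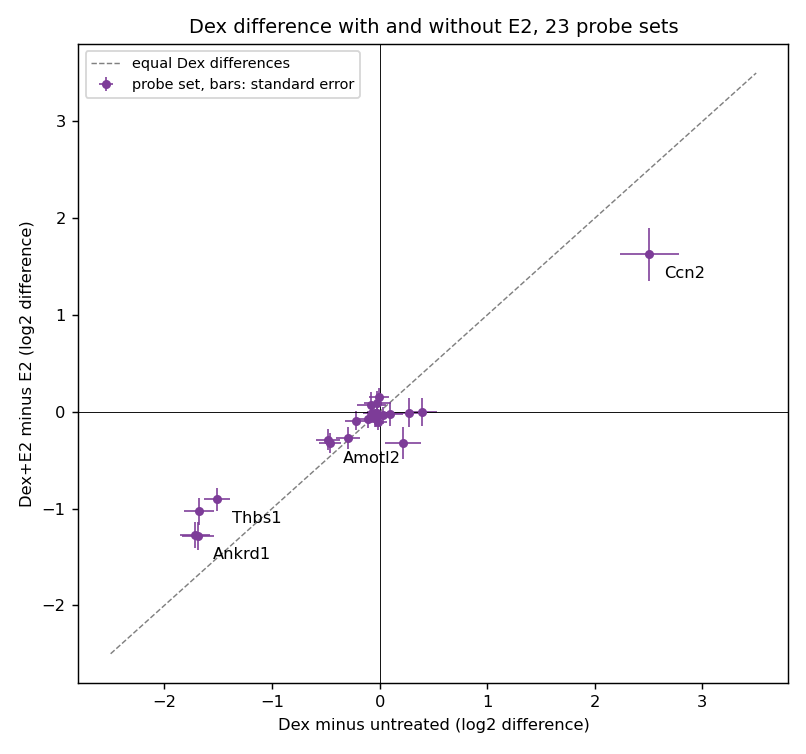
Dex minus untreated (horizontal axis) against Dex+E2 minus E2 (vertical axis), log2 difference with standard errors, for the 23 probe sets; the dashed line marks equal differences. Ccn2 at 2.51 and 1.63 and the Thbs1 and Ankrd1 probe sets lie between the dashed line and the horizontal axis at 0.

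The test of the difference itself, the Dex by E2 interaction, called 0 of 23 members by limma, with a lowest adjusted p of 0.881 and a background of 0.00222%. An unadjusted p under 0.05 was seen for 5 of 23, against 5.46% of all probe sets. Among them Ccn2 gave -0.88 ± 0.387 (unadjusted p = 0.0455) and Thbs1 gave 0.60 ± 0.171 and 0.65 ± 0.196 (0.00514 and 0.00748), which in each case is a smaller Dex difference in the presence of E2. These sizes rest on few arrays. Ccn2 gave -1.53 and Thbs1 0.37 on both probe sets without the 2 arrays with deviating descriptions. Leaving out single arrays gave Ccn2 between -1.39 (without Dex+E2 replicate 1) and -0.37 (without Dex+E2 replicate 2). In Dex+E2 against Dex, 0 of 23 passed by limma, against a background of 0.00666%. There 6 had an unadjusted p under 0.05, against 4.66% of all probe sets. All 4 Ccn1 probe sets, which are not separate observations, were among these. Tead1 1423434_at, with its lone array at 5.60, was another. The mean Dex effect called 7 of 23, 1 higher and 6 lower, from 5 genes, against 1.37% of all probe sets (0.679% higher, 0.693% lower). It was 2.07 ± 0.194 for Ccn2, and it lay between -1.21 and -1.49 for the Thbs1 and Ankrd1 probe sets. Without the 2 arrays with deviating descriptions it was 1.74 for Ccn2 and between -1.32 and -1.67 for those probe sets. The mean E2 effect called 0 of 23 by limma against a background of 0.0533%, and 6 probe sets, all of Ccn1 and Ankrd1 and all lower, had an unadjusted p under 0.05, against 4.23% of all probe sets. The largest of these was -0.43 ± 0.0958 for Ccn1 1438133_a_at (limma adjusted p = 0.314).

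Other genes of the pathway were read from lists, with the brightest probe set for each gene. Across 18193 genes so represented, 0.792% were higher and 0.5% lower with Dex, 0.682% and 0.511% with Dex+E2, and 0.066% passed in either direction with E2, with medians of 0.0041, 0.0080 and -0.011. An unadjusted p under 0.05 was seen for 5.89% of them with Dex, 7.78% with Dex+E2 and 5.5% with E2. Among 20 Hippo kinases and upstream regulators, 2 fell with Dex and 1 with Dex+E2, none rose, and none passed with E2 (2 at an unadjusted p under 0.05 by limma); the list medians were -0.03, -0.05 and 0.00. Ajuba, a LIM protein that binds and restrains LATS kinases, read 9.36 and 9.10 with Dex, 10.20 and 9.91 with E2, 9.38 and 9.08 with Dex+E2, and 10.61 and 10.52 in untreated cells. It fell by 1.33 ± 0.135 with Dex (limma adjusted p = 0.000675) and by 1.34 with Dex+E2 (0.000813). Frmd6, a FERM-domain protein that acts upstream of the kinases, fell by 0.44 with Dex (limma adjusted p = 0.0338), a call lost in 6 of the 8 fits that left out an array.

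Among the 7 other TEAD factors and VGLL cofactors, Tead4 alone passed. It read 7.58 and 7.46 with Dex, 6.68 and 6.86 with E2, 7.42 and 7.09 with Dex+E2, and 6.30 and 6.49 in untreated cells, with no overlap between the arrays with and without Dex. It rose by 1.13 ± 0.126 with Dex (limma adjusted p = 0.00126) and by 0.86 ± 0.126 with Dex+E2 (0.00854). The Dex+E2 call was lost without untreated replicate 1 (adjusted p = 0.138) or untreated replicate 2 (0.0505), and a second Tead4 probe set gave 1.26 and 1.24 units. The list medians were -0.04 with Dex, -0.10 with Dex+E2 and -0.11 with E2. With E2, 0 of the 7 passed by limma and 2 had an unadjusted p under 0.05. The difference between the responses of Tead4 and Tead1 was not tested.

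Of 17 other genes of a YAP and TAZ target signature first defined in human cells, 1 rose and 1 fell with Dex, 1 rose with Dex+E2, and 0 passed by limma with E2 (4 at an unadjusted p under 0.05). The medians were -0.02 with Dex, -0.02 with Dex+E2 and 0.08 with E2. F3, tissue factor, the trigger of the extrinsic coagulation cascade, read 8.21 and 8.05 with Dex, 6.36 and 7.02 with E2, 7.94 and 7.28 with Dex+E2, and 5.50 and 5.74 in untreated cells. It rose by 2.51 ± 0.229 with Dex (limma adjusted p = 0.000346) and by 1.99 with Dex+E2 (0.00171), and E2 alone gave 1.07 (0.372). Without both arrays with deviating descriptions F3 gave 1.66 with Dex+E2 and 0.74 with E2. Gadd45a, a growth arrest and DNA damage gene, fell by 0.89 ± 0.144 with Dex (limma adjusted p = 0.0146), and the call was lost without either Dex array or untreated replicate 2. In the list of 8 paralogs of the targets, Ccn4 (Wisp1), a WNT-inducible relative of Ccn2, fell by 0.89 with Dex and by 0.89 with Dex+E2 (limma adjusted p = 0.00185 and 0.00196), and no other passed. With E2, 0 of the 8 passed by limma and 3 had an unadjusted p under 0.05. The list medians were 0.03 with Dex, 0.03 with Dex+E2 and -0.02 with E2.

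Actin and serum response factor genes, which respond to the same mechanical inputs as YAP, gave 0 of 12 calls by limma with Dex, with E2 and with Dex+E2, and 4, 2 and 1 had an unadjusted p under 0.05. Their Dex differences ran between -0.22 and 0.26, and the medians were -0.05 with Dex, -0.03 with E2 and 0.01 with Dex+E2. On their leading probe sets the hormone control genes Per1, Fkbp5 and Tsc22d3 rose with Dex by 2.66, 1.62 and 2.82. Other probe sets gave 1.22 and -0.01 for Fkbp5 and 2.67, 0.49 and -0.03 for Tsc22d3. Per1 rose with E2 by 1.97, whereas Greb1 and Pgr, chosen for E2, did not pass.

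**Figure D5:**
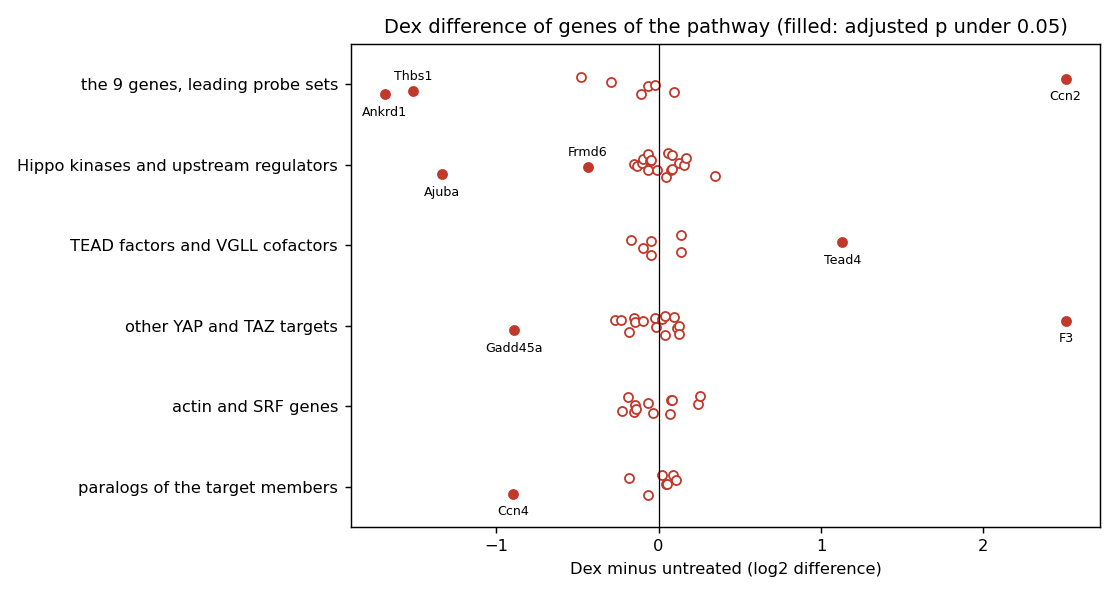
Dex minus untreated log2 difference (horizontal axis) for the leading probe set of each gene in the members and in each pathway list (rows); filled points have an adjusted p under 0.05. Most points lie near 0, with Ccn2, F3 and Tead4 to the right and Ankrd1, Thbs1 and Ajuba to the left.

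The genes with the most similar profiles over the 8 arrays were found by Pearson correlation among genes that spanned at least 1 log2 unit, as a description. Since the arrays fall into those with and those without Dex, any gene with a Dex response of the same sign scores high. For Ccn2 these were Slc39a14 (0.995), a zinc and iron transporter, Dok1 (0.993), a docking adaptor, and Nfil3 (0.990), a bZIP transcription factor. For Thbs1 they were Fosl2 (0.987), an AP-1 subunit, Irs1 (0.979), the insulin receptor substrate, and Ahr (0.976), the aryl hydrocarbon receptor. For Ankrd1 they were Klf10 (0.995), a zinc finger factor first described as induced by TGF-beta, Zfp36l1 (0.993), an RNA-binding protein that promotes decay of AU-rich transcripts, and Ajuba (0.991). For Amotl2 they were Ajuba (0.981), Ankrd1 (0.966) and Angptl4 (0.962), a secreted inhibitor of lipoprotein lipase.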

How the data were processed

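Expression was measured on 8 arrays of an Affymetrix mouse platform. The values are log2 levels of 45101 probe sets, made by the authors with RMA in Affymetrix Expression Console, per the submitters' processing notes, which give no version. RMA corrects background, equalises array distributions and summarises probes, so it compresses dim probe sets, and a level says nothing about that of another probe set. The titles gave each sample's group and replicate number, and the number of arrays limits the precision. With 64 control probe sets left out, limma 3.58.1 (R 4.3.3) was fitted to 45037 probe sets with 1 mean per group over all arrays (4 residual degrees of freedom), and 8 comparisons were tested two-sided with Benjamini-Hochberg adjustment and a threshold of 0.05. Of the probe sets, 34958 had 1 gene symbol in the platform annotation, 932 had several and 9211 none. Every member probe set was described; a gene's leading probe set had the highest mean over the arrays; at most 4 called genes of each list were named. Likeness took the 3 highest correlations among genes brighter than the median. The members and lists were chosen with earlier results of these data known. The fit was tested on simulated data. Alternatives were other priors, dim probe sets left out, other ways to pick probe sets, a replicate block, each array left out and, added after seeing the data, both arrays with deviating descriptions left out and the block with Dex+E2 numbers crossed.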

Additional observations from a re-analysis of the deposited data

How the results depend on the processing

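The member calls of Ccn2, Thbs1 and Ankrd1 in Dex against untreated and in the mean Dex effect held in all 8 fits that left out an array (Ccn2 with Dex 2.25 to 2.76). Of 2888 member values under the alternatives, 30 lost a call, 16 gained one and 0 called values changed sign; 150 values uncalled under both settings had opposite signs. Amotl2 passed with Dex (limma adjusted p = 0.0348) and with Dex+E2 (0.0438) under a trended, robust prior. Leaving out an array, which also leaves fewer degrees of freedom, gave 5 to 6 member calls for Dex, 4 to 7 for Dex+E2 against untreated, 0 to 7 for Dex+E2 against E2, 0 to 1 for Dex+E2 against Dex and 5 to 7 for the mean Dex effect. The same fits gave 170 to 498 calls over all probe sets for Dex, 3 to 37 for E2, 169 to 1436 for Dex+E2 against untreated, 30 to 1974 for Dex+E2 against E2, 0 to 168 for Dex+E2 against Dex, 0 to 29 for the interaction, 349 to 1666 for the mean Dex effect and 3 to 71 for the mean E2 effect. With 1 leading probe set a gene, which tests fewer features, members called were 3 for Dex, 3 for Dex+E2 against untreated, 3 for Dex+E2 against E2 and 4 for the mean Dex effect, and all calls were 267 for Dex and 404 for the mean Dex effect. With each gene's probe sets averaged, members called were 3, 3, 3 and 4 in the same order, and all calls were 269 for Dex, 237 for Dex+E2 against untreated, 100 for Dex+E2 against E2 and 365 for the mean Dex effect. The trended, robust prior gave 46 calls for E2, 5 for Dex+E2 against Dex, 6 for the interaction and 76 for the mean E2 effect, and leaving out dim probe sets gave 0 for Dex+E2 against Dex; the cause was not tested. Without both arrays whose descriptions name another experiment, members called were 8 for Dex+E2 against untreated and 1 for Dex+E2 against Dex, and all calls were 1648 for Dex+E2 against untreated, 530 for Dex+E2 against E2, 243 for Dex+E2 against Dex, 9 for the interaction, 1045 for the mean Dex effect and 59 for the mean E2 effect; the cause was not tested. Replicate deviations correlated at 0.160 to 0.312 among untreated, Dex and E2 and at -0.248 to -0.105 between Dex+E2 and each of them, and the labels tie the numbers to no shared batch, so pairing was not assumed; the replicate block gave 5 member calls and 372 in all for Dex and, among the genes named, lost the call of Frmd6 with Dex (0.0583). The replicate block with the Dex+E2 numbers crossed gave 6 member calls and 529 in all for Dex, 46 calls for E2, 451 for Dex+E2 against E2, 5 for Dex+E2 against Dex, 2 for the interaction, 952 for the mean Dex effect and 52 for the mean E2 effect.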
